A study of Mus musculus with 12 samples.

Results

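The comparison set Smad4-null embryoid bodies against wild-type (WT) embryoid bodies while both received activin, and took 4 of the 12 arrays of the series: Smad4-null-ac replicates 1 and 2 and WT-ac replicates 1 and 2. Members were chosen by sample title, not by a measured value. Embryoid bodies are free-floating aggregates of mouse embryonic stem cells that begin to differentiate once LIF is withdrawn. All cells were of strain 129, and every sample was taken at day 2.5 after 2 h of treatment. The WT-ac and Smad4-null-ac samples received activin at 50 ng/ml. The WT-SB and Smad4-null-SB samples received the receptor inhibitor SB431542, which the labels give as 10 mM, a unit that may be a slip and could not be checked, and served here as the same line comparison with the receptors blocked. Trim33-KD-ac embryoid bodies, which carry a knock-down of the ubiquitin ligase Trim33, received activin and served as a second modified line. No group was left untreated. The labels give neither the parent line of each genotype nor the mutated part of Smad4, so genotype and cell line cannot be told apart. Nothing says that the 2 replicates of a group were separate cultures, so p-values may measure technical spread only.

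Nodal and activin bind type I and type II serine kinase receptors, which phosphorylate Smad2 and Smad3. These bind Smad4, enter the nucleus and act on target genes together with partners such as Foxh1. In the gastrulating mouse embryo, nodal works with Wnt and BMP signals to form the primitive streak, from which mesoderm and definitive endoderm arise, and embryoid bodies follow part of that course.

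Values are log2 signals per probe set, 1 probe set per gene, and a difference is Smad4-null minus WT unless another is named. A gene was called raised or lowered where the limma adjusted p, over 18193 genes, was under 0.05. The median signal of the 12 arrays lay between 5.85 and 6.30, and precision is limited by how few arrays there are. Signals spread least on the first Smad4-null-ac array (SD 3.13) and the second WT-SB array (SD 3.07), where the other 10 had SDs of 3.24 to 3.39. The 18S rRNA probes read low on the first array of both WT groups (5.53 with activin, 5.82 with SB431542); elsewhere they averaged 7.56 to 10.2. The Actb 3' minus 5' difference, a sign of RNA quality, was 0.32 and 0.36 on the WT-ac arrays and 0.51 and 0.34 on the Smad4-null-ac arrays. Fits without single arrays are given beside the results.

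The gene named by the genotype was read first. Smad4 signal was 11.90 and 12.03 on the WT arrays and 12.16 on both Smad4-null arrays, a difference of 0.20 (SE 0.12, limma adjusted p = 0.35). The 3 Smad4 probe sets stood at 97.7%, 109% and 115% of WT. Since the labels do not say where the mutation lies, this signal does not check the label. The raised gene with the largest difference was another. Hprt, the purine salvage enzyme whose gene is a common selectable locus in embryonic stem cells, was 6.09 and 6.37 in WT and 12.91 and 12.69 in Smad4-null, 95.4-fold higher (difference 6.58, SE 0.24, adjusted p = 0.000158). The Trim33-KD-ac mean was 5.80, close to the WT level.

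Under activin, 1690 genes (9.29% of 18193) were called: 671 were raised (3.69%) and 1019 lowered (5.6%). The median difference over all genes was 0.06. With each array centred on its median, the split turned to 995 raised and 770 lowered, so the balance of directions rests on the scaling. Both arrays of each group lay apart for all 1690 called genes, and for 57.1% of all genes (31.6% with Smad4-null higher, 25.5% lower). After values were floored at log2 6 (64 on the linear scale), 601 called genes differed at least 2-fold, 217 higher and 384 lower. At 4-fold there were 74, of which 20 were higher and 54 lower. The count fell to 499 without WT-ac replicate 1, 567 without WT-ac replicate 2, 590 without Smad4-null-ac replicate 1 and 861 without Smad4-null-ac replicate 2.

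**Figure D1:**
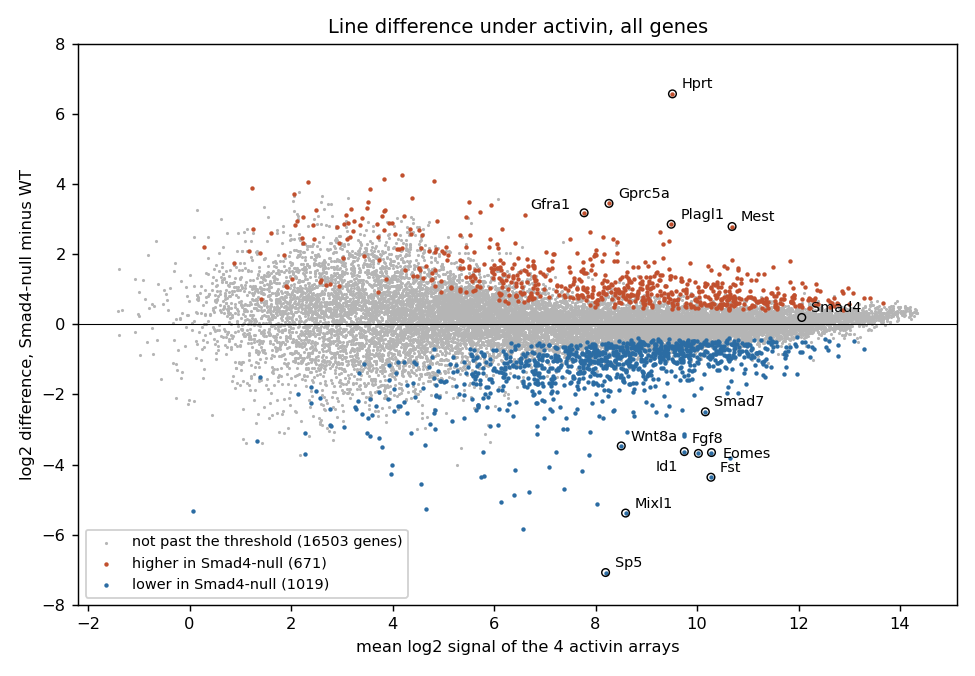
Log2 difference (Smad4-null minus WT, activin) against the mean log2 signal of the 4 activin arrays, 1 point per gene. Red points are the 671 raised genes, blue points the 1019 lowered genes and grey points the rest; Hprt at 6.58 and Sp5 at -7.08 mark the ends of the range.

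Bright genes, those with a higher group mean of at least 8, were lowered in 8.24% and raised in 5.1% of 8648. Sp5, a Wnt-induced zinc finger factor, was 11.71 and 11.77 in WT and 3.23 and 6.09 in Smad4-null (difference -7.08, SE 0.80, adjusted p = 0.00355). Floored at log2 6 the difference was -5.70. Mixl1, a primitive streak homeobox gene, was 11.22 and 11.35 against 6.31 and 5.49, which left 2.4% of the WT signal. Both genes were bright in WT and near or under the floor in Smad4-null, with no overlap. In these bulk samples, fewer cells of a type and less RNA per cell cannot be told apart. Fst, the secreted antagonist follistatin, was 12.40 and 12.50 against 8.0 and 8.19, 4.87% of WT. Also among the 15 most lowered were Fgf8, Eomes, Id1, Wnt8a, Mid1 (a microtubule-associated ubiquitin ligase), Nab1 (a co-repressor of Egr factors), the ephrin receptor gene Epha1, the neurofilament gene Nefl, the cadherin genes Cdh11 and Pcdh8, Rtl8c and the co-receptor gene Tgfbr3. Their differences ran from -5.84 for Rtl8c to -3.14 for Tgfbr3. Rtl8c was under log2 6 on both Smad4-null arrays, and its floored difference was -3.48. Where a group lies under the floor, the size of a difference is uncertain, and the floored value is given for called genes where it is over 1.5 times smaller. All 15 kept the call without any single one of the 4 arrays. Nefl and Pcdh8 lie on chromosome 14 and Cdh11 on chromosome 8. Among the upper 50% of genes by signal, chromosome 14 had a median of -0.50 (119 of 304 lowered, 10 raised) and chromosome 8 a median of 0.22 (79 of 522 raised, 16 lowered), against -0.005 over the other 8254 genes. Without the genes of both chromosomes 1332 calls were left.

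Raised genes were fewer at that size. Gprc5a, an orphan retinoic-acid-induced receptor, was 6.59 and 6.49 in WT and 10.06 and 9.93 in Smad4-null (difference 3.45, SE 0.23, adjusted p = 0.000742). Gfra1, the GDNF co-receptor, was 6.13 and 6.24 against 9.26 and 9.48. Mest and Plagl1, both imprinted genes, rose by 2.79 and 2.86. The Mest arrays read 9.42 and 9.17 in WT and 12.08 and 12.09 in Smad4-null, a gap larger than the spread within either pair. The other raised genes of largest size were Ryr3, Eprn, Aire, Coro2b, Gadd45g, Sohlh2, Gprc5b, Fgfbp1, Hormad1 and Gm2381, with floored differences from 2.13 for Gm2381 to 2.64 for Ryr3. Hormad1, whose WT arrays were under log2 6, had a floored difference of 2.18 and an unfloored one of 3.13. Sohlh2 and Hormad1 are germ cell genes, the latter a meiotic chromosome axis protein, and Aire is a transcription regulator best known from the thymus. Calls for 3 of these depended on single arrays. Hormad1 lost its call without WT-ac replicate 1 (2.97, adjusted p = 0.0581). Gadd45g and Fgfbp1 each held in 1 of the 4 fits without an array, with adjusted p up to 0.107 and 0.0588.

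In the nodal pathway itself, calls were spread over ligands, antagonists and feedback genes. Counts of this and the later lists are to be read against the 9.29% of all genes called. Of 6 measured Nodal ligands and co-receptors, 1 was raised and 1 lowered. Gdf3, a nodal-related ligand, was 10.22 and 10.17 in WT and 11.45 and 11.18 in Smad4-null (difference 1.12, SE 0.15, adjusted p = 0.00608). Tdgf1, the nodal co-receptor Cripto, was 13.17 and 13.26 against 12.20 and 12.44 (difference -0.90, SE 0.14, adjusted p = 0.00973), and it held only in the fit without Smad4-null-ac replicate 2. For Nodal the arrays read 11.79 and 12.14 against 11.37 and 11.32, lower in both Smad4-null arrays without passing the limma test (-0.62, adjusted p = 0.0936). Its other probe set averaged 11.54 in WT and 10.35 in Smad4-null, a larger difference of -1.19. The list had 2 lowered members with probe sets averaged, over the upper 50% of genes, and with the trended and robust prior. Inhba, Inhbb and Cfc1 did not pass either, with differences from -1.27 to 0.47.

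Of 10 receptors, Smads and Foxh1, 1 was lowered, a share near the 9.29% of all genes called. This was the TGF-beta receptor gene Tgfbr2, at 6.83 and 7.07 in WT and 5.55 and 6.03 in Smad4-null (-1.16, adjusted p = 0.0219). Its other probe sets, both under log2 6, lay on the opposite side, and the call held only without Smad4-null-ac replicate 2. The activin receptor genes Acvr1b, Acvr1c, Acvr2a and Acvr2b and the effectors Smad2 and Smad3 differed by -0.33 to 0.43, with adjusted p of 0.209 or more. Foxh1, the forkhead partner of Smad2, was 11.36 and 10.96 against 10.51 and 10.41 (-0.70, adjusted p = 0.0559).

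Among 7 antagonists, Fst and Cer1 were lowered and none was raised. Cer1, which encodes the secreted inhibitor Cerberus, was 7.57 and 7.66 in WT and 4.14 and 3.78 in Smad4-null (-3.65, SE 0.49, adjusted p = 0.00613; floored -1.62). Lefty1, a secreted nodal inhibitor, was 13.16 and 13.13 against 13.79 and 13.58, higher in both Smad4-null arrays without passing the test (0.54, adjusted p = 0.222). Lefty2 was 10.26 and 10.55 against 10.04 and 10.18, also without a call. Dand5, Fstl1 and Fstl3 did not pass, with differences from -0.41 to 0.71.

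Of 11 Smad feedback genes, 4 were lowered and none raised, with a median of -0.27. Smad7, the inhibitory Smad that acts at the receptor, was 11.48 and 11.34 in WT and 8.82 and 9.02 in Smad4-null (-2.49, SE 0.27, adjusted p = 0.00313). Pmepa1, a membrane protein that holds back Smad2 and Smad3, was 9.82 and 9.95 against 7.90 and 8.10 (-1.89, SE 0.20, adjusted p = 0.0028). Both pairs of arrays lay well apart, and both calls held without any single array. Smad6 was 8.38 and 8.32 against 6.55 and 7.39, and its call (-1.38, adjusted p = 0.0302) held only without Smad4-null-ac replicate 2. Tgif2 fell by 0.44 (adjusted p = 0.0485) and lost its call without any of the 4 arrays. The list had 3 lowered members without Smad4-null-ac replicate 2 and 2 without any other array. Skil, Ski, Tgif1, Smurf1, Smurf2, Ldlrad4 and Bambi did not pass, with values from -0.45 to 1.39.

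Mesendoderm transcription factors were the list with the lowest median. Of 11 measured members 7 were lowered and none raised, and the median was -2.59 against 0.06 over all genes. Eomes, the T-box factor needed for mesoderm and definitive endoderm, was 12.18 and 12.04 in WT and 8.56 and 8.35 in Smad4-null (-3.66, SE 0.25, adjusted p = 0.000742). Gsc, the organizer homeobox gene, was 9.04 and 9.22 against 5.85 and 4.25 (-4.08, SE 0.62, adjusted p = 0.00958; floored -3.13). Evx1, a posterior streak homeobox gene, was 8.85 and 8.80 against 3.44 and 4.49 (-4.86, SE 0.51, adjusted p = 0.0028; floored -2.82). In each of these the Smad4-null arrays were far below both WT arrays, and for Gsc and Evx1 they were under the floor. Lhx1, a LIM homeobox gene of the organizer, was 8.81 and 9.36 against 3.22 and 5.40 (floored -3.09), and Foxa2, the node and endoderm forkhead factor, 10.61 and 10.75 against 7.91 and 8.26. Gata6, an endoderm GATA factor, fell by 1.22 (adjusted p = 0.0276).

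The count of lowered mesendoderm factors was 3 without either WT-ac array and 5 without either Smad4-null-ac array. Mixl1, Eomes and Evx1 held in all 4 of these fits. Gsc lost its call without either WT-ac array (adjusted p = 0.0548 and 0.0583), Lhx1 and Gata6 each kept it in 1 of 4, and Foxa2 in none (adjusted p 0.069 to 0.12). Sox17, Gata4, Hhex and Foxa1 did not pass. On the probe sets used, Hhex had the largest of these differences at -0.96 (limma adjusted p = 0.0806) and Sox17 differed by -0.65. A second Sox17 probe set averaged 7.20 in WT and 4.75, under the floor, in Smad4-null (-2.45). The summed level of the streak markers Mixl1 and Eomes (log2 of the summed linear signals) was 12.78 and 12.74 in WT and 8.84 and 8.54 in Smad4-null. For the 7 epiblast markers the sum was 15.59 and 15.61 against 15.80 and 15.68.

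The promoter of Evx1 is printed because it is among the lowered streak factors and holds the Smad box CAGAC, here on the other strand as GTCTG. The 250 bases before the start site in RefSeq (GRCm38.p6, chr6:52313248-52313497, plus strand) hold 1 match, at position -111 from the start, in capitals.
Evx1: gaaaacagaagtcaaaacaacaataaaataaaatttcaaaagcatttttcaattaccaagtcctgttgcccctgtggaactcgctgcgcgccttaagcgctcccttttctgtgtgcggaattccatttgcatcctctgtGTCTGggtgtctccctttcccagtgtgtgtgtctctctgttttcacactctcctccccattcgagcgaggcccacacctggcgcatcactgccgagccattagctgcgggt
A RefSeq window was matched for 5 of the 7 lowered factors, and 2 of these 5 held CAGAC on either strand, against 42.2% of 32851 windows. None of the 5 held the Smad palindrome GTCTAGAC (0.167% of all windows) or the Foxh1 motif AATNNACA (10.9%). A match describes letters only.

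Nascent mesoderm genes moved both ways, with 6 of 22 lowered and 3 raised. With the genes of chromosomes 8 and 14 left out, 4 of 18 were lowered and 3 raised. Aplnr, the apelin receptor of early mesoderm, was 8.44 and 8.90 in WT and 4.08 and 3.13 in Smad4-null (-5.06, adjusted p = 0.00763; floored -2.67), and lost its call without WT-ac replicate 2 (adjusted p = 0.0526). Cdh11, a mesenchymal cadherin, was 9.65 and 9.80 against 4.93 and 5.10 (floored -3.72), and Pcdh8, a paraxial mesoderm protocadherin, 9.64 and 10.00 against 4.86 and 6.43 (floored -3.61). Dll3, Etv2 and Snai1 fell by 1.08, 1.38 and 1.40. Etv2 lost its call without any single array, and Snai1 without either WT-ac array (adjusted p = 0.113 and 0.0995). The Notch ligand gene Dll1 rose by 1.38, Mest by 2.79 and, outside the naming rule and dim, Meox1 by 3.62 (floored 0.20). Dll1 also lost its call without any single array. The list had 3 lowered members without WT-ac replicate 2, 4 without WT-ac replicate 1 and 5 without either Smad4-null-ac array, and 1 or 2 raised. The nascent mesoderm markers Mesp1, Kdr and Pdgfra did not pass. Mesp1 stood at 7.52 and 7.70 in WT and 6.57 and 6.46 in Smad4-null.

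Of 12 Cdx and early Hox genes, 4 were lowered and none raised. Cdx2, a posterior homeobox gene, was 8.54 and 8.08 in WT and 5.90 and 5.39 in Smad4-null (-2.67, adjusted p = 0.0142), and the call was lost without any of the 4 arrays (adjusted p 0.0533 to 0.0883). The list had 2 lowered members without Smad4-null-ac replicate 2 and 1 without any other array. The others, named after their values were seen, were Cdx1 (-4.0, floored -0.05), Hoxb1 (-0.91) and Hoxd1 (-1.55, floored -0.71). Both group means were under log2 6 for 8 of the 12.

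**Figure D2:**
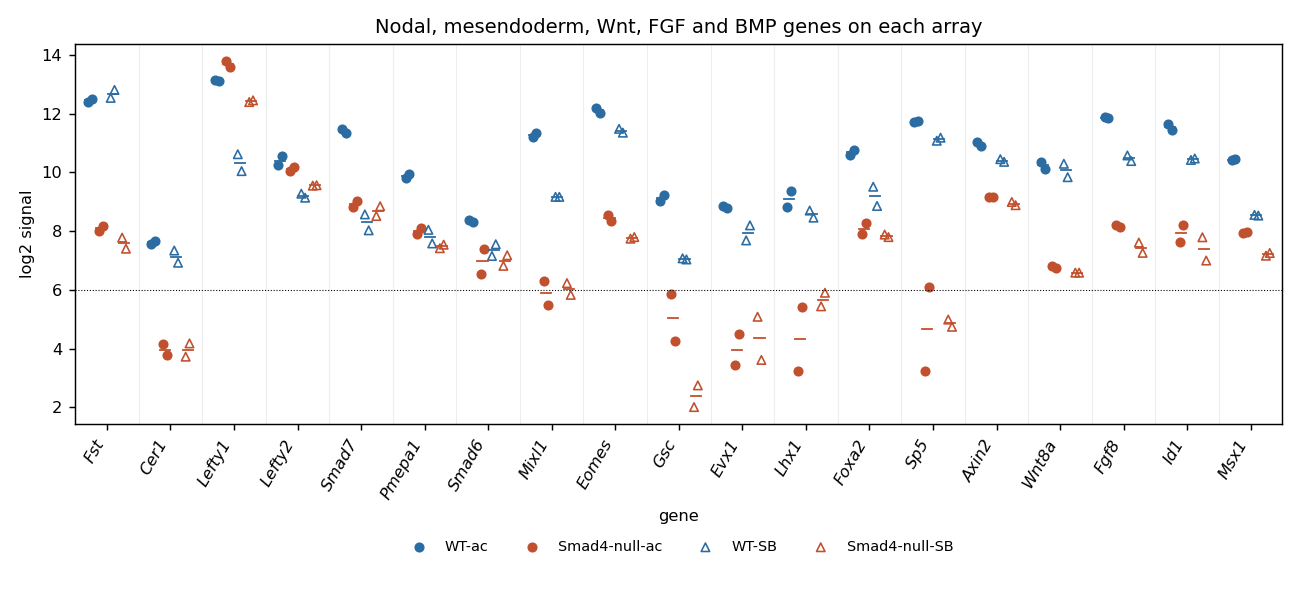
Log2 signal on each array of 19 nodal, mesendoderm, Wnt, FGF and BMP genes. Filled circles are the activin arrays and open triangles the SB431542 arrays, WT in blue and Smad4-null in red; short lines are group means and the dotted line is log2 6. The Smad4-null circles lie below the WT circles for every gene shown except Lefty1. Neither Lefty1 nor Lefty2 was called.

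Wnt target genes were lowered next to the streak factors: 6 of 13 measured members were lowered and 1 raised, with a median of -0.76. Leaving out the genes of chromosomes 8 and 14 gave 5 of 11 lowered and 1 raised. Axin2, a part of the beta-catenin destruction complex and a feedback inhibitor of Wnt signalling, was 11.05 and 10.91 in WT. In Smad4-null it was 9.18 and 9.16 (-1.81, SE 0.14, adjusted p = 0.00108). The receptor gene Tnfrsf19 was 9.84 and 10.47 against 6.84 and 7.33 (-3.07, adjusted p = 0.00298), and Myc was 10.42 and 10.55 against 9.19 and 9.20 (-1.29, adjusted p = 0.0035). Sp5, Axin2, Tnfrsf19 and Myc held without any single array. Sp8, a relative of Sp5, fell by 3.13 and held only without Smad4-null-ac replicate 2. The secreted inhibitor gene Dkk1, which the naming rule did not pick, had a difference of -1.75. Its call was lost without any single array. Notum went the other way, at 8.63 and 8.59 in WT and 9.93 and 9.85 in Smad4-null (1.28, SE 0.10, adjusted p = 0.00108). It encodes an enzyme that inactivates Wnt ligands and is itself a known Wnt target.

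The promoters of Sp5 and Dkk1 are shown for the T-cell factor (TCF) motif through which beta-catenin acts. In Sp5 (GRCm38.p6, chr2:70474673-70474922, plus strand) the capitals mark 1 match to CTTTGAT, at position -104 from the start. In Dkk1 (chr19:30549497-30549746, minus strand, printed on the gene's strand) they mark 4 matches to the shorter CTTTGNN on either strand, 2 of them adjoining.
Sp5: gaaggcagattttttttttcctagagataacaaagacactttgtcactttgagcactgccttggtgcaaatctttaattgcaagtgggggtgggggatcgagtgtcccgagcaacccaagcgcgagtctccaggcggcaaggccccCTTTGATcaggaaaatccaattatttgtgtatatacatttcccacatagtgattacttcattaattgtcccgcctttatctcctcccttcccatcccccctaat
Dkk1: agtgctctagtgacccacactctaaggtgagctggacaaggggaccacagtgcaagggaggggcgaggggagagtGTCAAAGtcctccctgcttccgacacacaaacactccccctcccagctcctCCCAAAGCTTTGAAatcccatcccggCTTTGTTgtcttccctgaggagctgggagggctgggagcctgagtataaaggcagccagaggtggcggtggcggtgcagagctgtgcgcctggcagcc
CTTTGAT, searched on both strands, was held by 3.21% of 32851 windows and by 1 of the 5 lowered Wnt targets with a window. CTTTGNN, which contains every CTTTGAT match, was held by 48.3% of windows and by 2 of these 5.

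The ligands and receptors of the Wnt pathway had 10 of 29 members lowered and 1 raised. Outside chromosomes 8 and 14 these were 9 of 26 lowered and none raised. Wnt8a, a ligand of the early streak, was 10.36 and 10.12 in WT and 6.81 and 6.73 in Smad4-null (-3.47, SE 0.18, adjusted p = 0.000297). Wnt11 was 8.74 and 9.13 against 6.56 and 5.35. The receptor genes Fzd10 and Fzd3 fell by 1.86 and 1.48 and the secreted Wnt-binding gene Frzb by 2.67. These 5 held without any single array. Fzd6 (-0.97) and Sfrp2 (-0.84) were also lowered and Sfrp1 was raised (1.23); Fzd6 and Sfrp1 lost their calls without any single array, and Sfrp2 held only without Smad4-null-ac replicate 1. Over the list 5 were lowered without either WT-ac array and 7 without either Smad4-null-ac array.

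BMP ligands and targets had 5 of 17 members lowered and 1 raised, with a median of -0.74. Id1, an inhibitor of basic helix-loop-helix factors, was 11.67 and 11.46 in WT and 7.64 and 8.23 in Smad4-null (-3.63, SE 0.32, adjusted p = 0.00138). Msx1, a homeobox gene, was 10.41 and 10.46 against 7.93 and 7.96 (-2.49, SE 0.12, adjusted p = 0.000276). In both genes the WT arrays lay far above the Smad4-null arrays, and Msx1 had the tighter pairs. Id3 fell by 1.43 and Id2 by 1.87, and Id2 lost its call without Smad4-null-ac replicate 1 or WT-ac replicate 2 (adjusted p = 0.0743 and 0.0701). The list had 3 lowered members without either of these 2 arrays. Bmper (-1.39, floored -0.39) and Dlx5 (1.34, floored 0.12), both dim, made up the list's calls and were named after their values were seen.

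FGF ligands and receptors moved both ways, with 4 of 12 lowered and 3 raised. Outside chromosomes 8 and 14 these were 3 of 9 lowered and 3 raised. Fgf8, the streak FGF, was 11.89 and 11.85 in WT and 8.22 and 8.16 in Smad4-null (-3.68, SE 0.31, adjusted p = 0.00115), 7.79% of WT. Fgf13 (-0.68) and Fgf15 (-0.60) were lowered and the receptor gene Fgfr2 raised (1.04). Of these 4, Fgf8 alone held in every fit without an array, Fgf13 held without Smad4-null-ac replicate 2, and Fgf15 and Fgfr2 held in none. The dimmer Fgf17 (-1.50), Fgf18 (1.54, floored 0.92) and Fgfr4 (0.87, floored 0.56), outside the naming rule, were the other calls. The list had 1 lowered member without WT-ac replicate 1, WT-ac replicate 2 or Smad4-null-ac replicate 1, and 2 without Smad4-null-ac replicate 2. Among 14 feedback genes and ETS targets of ERK, the kinase below FGF receptors, 7 were lowered and 1 raised, with a median of -0.62. Without the genes of chromosomes 8 and 14, 5 of 11 were lowered and none raised. Dusp6, the ERK phosphatase, was 12.43 and 12.41 against 10.90 and 11.11 (-1.42, adjusted p = 0.0101). Il17rd (-1.49), Etv4 (-1.48), Spry2 (-1.39), Spred3 (-1.08), Spry4 (-0.87) and Spred1 (-0.73) were lowered as well, and Spry1 was raised (0.58). The ERK count leaned on single arrays: no member was called without WT-ac replicate 1, 1 without WT-ac replicate 2 or Smad4-null-ac replicate 1, and 3 without Smad4-null-ac replicate 2. Of 14 immediate early genes 4 were lowered: Fos (-1.60), Junb (-1.39), Jun (-1.05) and, below the naming rule's signal, Atf3 (-1.26). Fos held only without WT-ac replicate 1, and Jun and Junb in no such fit.

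Naive pluripotency genes, which mark embryonic stem cells before they enter the epiblast state, were the list with the highest median. Of 14 measured members 8 were raised and none lowered, and the median was 1.20. With the genes of chromosomes 8 and 14 left out, 6 of 11 were raised and the median was 1.28. Nr0b1, the nuclear receptor Dax1, was 8.94 and 9.05 in WT and 10.73 and 10.74 in Smad4-null (1.74, SE 0.14, adjusted p = 0.00108). Esrrb, an orphan nuclear receptor of the naive network, was 10.30 and 10.21 against 11.76 and 11.62 (1.44, SE 0.15, adjusted p = 0.00266). Zfp42, also known as Rex1, was 11.14 and 11.31 against 12.39 and 12.50 (1.22, SE 0.12, adjusted p = 0.00214). All Smad4-null arrays lay above all WT arrays in these genes, by more than the gap within either pair. Klf4 rose by 1.48, Tcl1 by 1.35, Fgf4 by 1.62, Prdm14 by 1.28 and Klf2 by 1.18. Nr0b1, Esrrb, Zfp42, Klf4 and Tcl1 held without any single array. Klf2 lost its call without Smad4-null-ac replicate 1 (1.06) or WT-ac replicate 2 (1.12), and Fgf4 and Prdm14 held in 1 fit each. The list count was 5 without Smad4-null-ac replicate 1, 6 without either WT-ac array and 7 without Smad4-null-ac replicate 2.

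**Figure D3:**
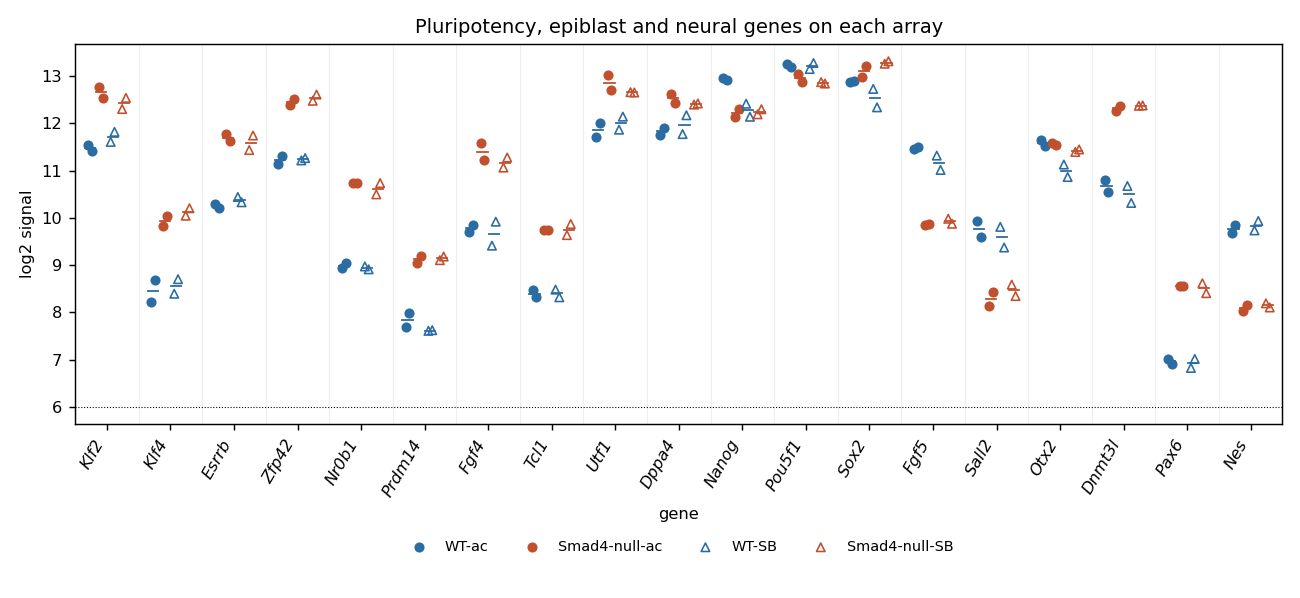
Log2 signal on each array of 19 pluripotency, epiblast, DNA methylation and neural genes, with symbols as in the plot of signalling genes. The first 8 genes, of the naive list, have all red symbols above all blue symbols; Pou5f1, Sox2 and Otx2 under activin were not called.

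Of 9 core pluripotency genes 2 were raised and 1 lowered. Utf1 was 11.72 and 12.01 in WT and 13.01 and 12.69 in Smad4-null (0.99, adjusted p = 0.0269), Dppa4 rose by 0.70, and Nanog, which was 12.95 and 12.92 against 12.13 and 12.30, fell by 0.72 (adjusted p = 0.0235). These 3 calls were lost without any single array. Pou5f1, which encodes Oct4, was 13.26 and 13.18 against 13.04 and 12.87 (-0.27, adjusted p = 0.181). Of 11 primed epiblast genes, Fgf5 and Sall2 were lowered and Dnmt3a raised. With the genes of chromosomes 8 and 14 left out, 1 of 8 was lowered and 1 raised. Fgf5, the FGF that marks the primed epiblast, was 11.46 and 11.49 against 9.84 and 9.87 (-1.62, SE 0.22, adjusted p = 0.00652), and Sall2 was 9.93 and 9.59 against 8.14 and 8.44. Both held without any single array. For Dnmt3a, a de novo DNA methyltransferase, the probe sets disagreed: 3 were higher (0.33 to 0.58) and 2 lower (-0.50 and -0.20). Its call was lost without any single array.

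Of 17 neural and forebrain factors 1 was raised and 1 lowered, a share near the 9.29% of all genes called. Pax6, an eye and forebrain paired-box factor, was 7.02 and 6.91 in WT and 8.55 and 8.57 in Smad4-null (1.59, SE 0.16, adjusted p = 0.00226). A second Pax6 probe set differed by 1.8, and the other 3, all under log2 6, by -0.35 to -0.17. Nes, an intermediate filament of neural progenitors, was 9.67 and 9.85 against 8.02 and 8.16 (-1.67, SE 0.12, adjusted p = 0.000836). The neural marker Sox1 was under log2 6 on all 4 arrays.

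Markers of other cell types were read as whole lists, by their summed linear signal in log2. Nascent mesoderm (3 markers) summed to 8.98 and 9.04 in WT and 8.17 and 8.06 in Smad4-null. Extraembryonic endoderm (5 markers, 2 of them under log2 6 on all 4 arrays) summed to 9.34 and 9.42 against 9.17 and 9.35. Trophectoderm (4 markers, 1 under) summed to 7.90 and 7.54 against 8.35 and 7.91. Fibroblast markers, which would show feeder cells, summed to 9.02 and 8.97 against 9.25 and 9.30 (7 markers, 4 under). Blood and endothelium summed to 8.93 and 8.74 against 9.40 and 9.12 (5 markers, 1 under). None of these markers was called. The fibroblast markers went both ways. Dcn, a fibroblast proteoglycan, was 3.26 and 5.32 in WT and 7.89 and 7.86 in Smad4-null (3.59, limma adjusted p = 0.0682; floored 1.88). Thy1, the brightest of them in WT, was 8.40 and 8.22 against 7.48 and 7.77 (-0.69, adjusted p = 0.0614). Col1a2 was also lower (-0.32), and Postn, Lum, Col1a1 and Col3a1 were higher, by 0.41 to 0.96. The part of these cell types in the results above was not tested.

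**Figure D4:**
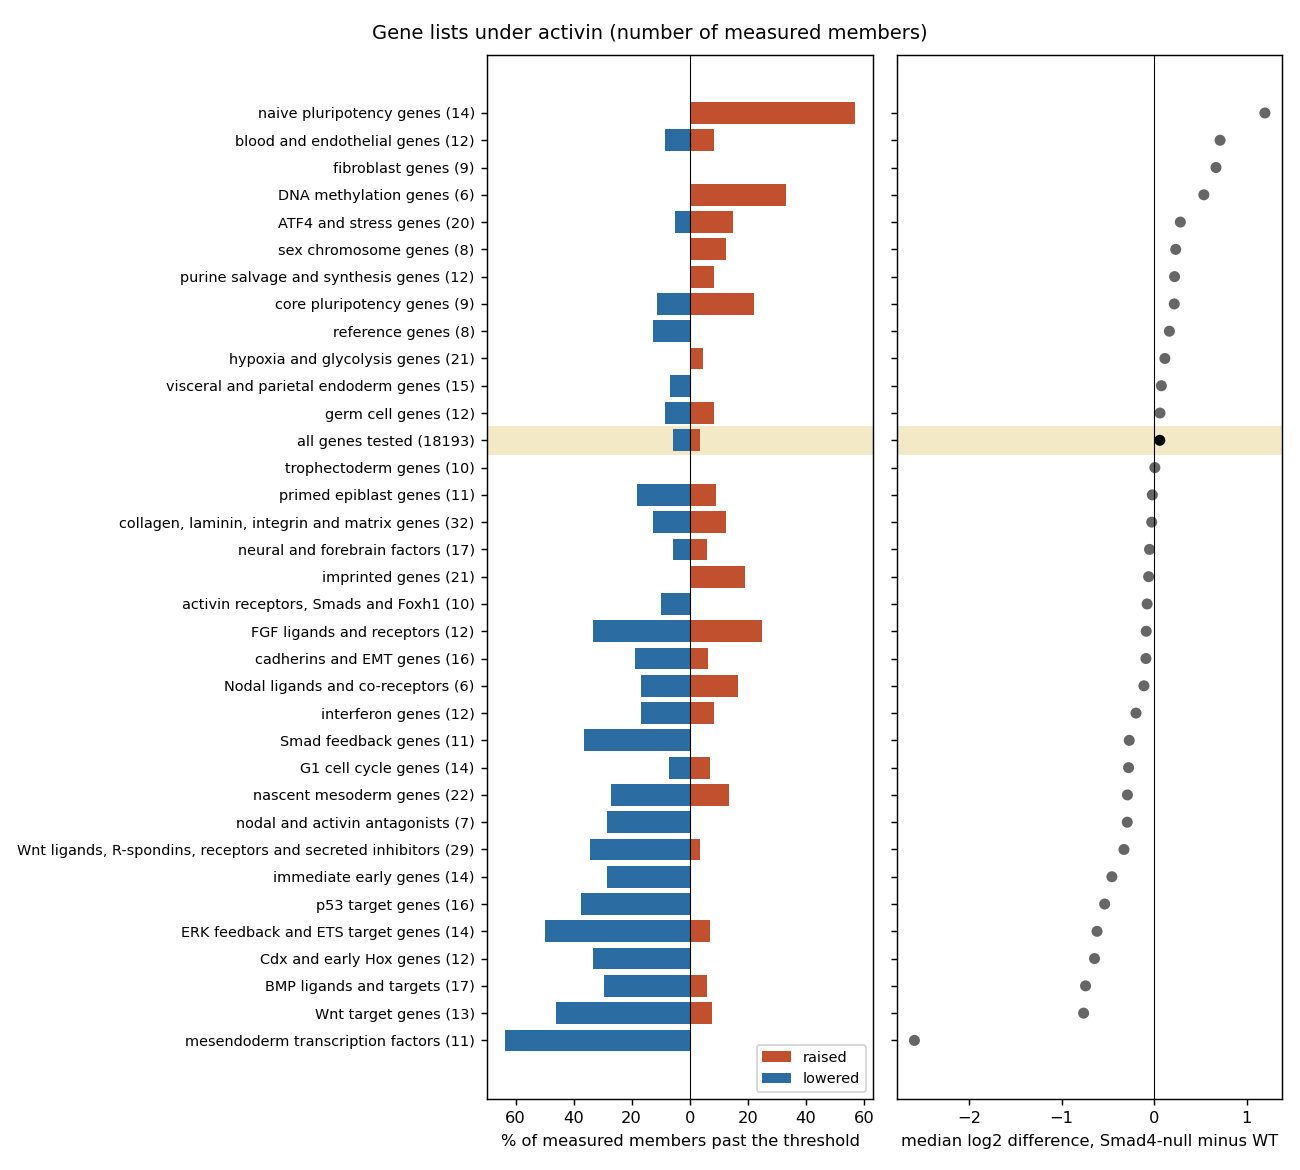
Each of the 34 gene lists and all 18193 genes under activin. Left, the percentage of measured members raised (red) or lowered (blue); right, the median log2 difference, Smad4-null minus WT. Mesendoderm factors (-2.59) and naive pluripotency genes (1.20) lie at the ends, and all genes (shaded) at 0.06.

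The same line difference was measured with the receptors blocked by SB431542, in 4 arrays that the activin comparison does not share. Both comparisons took each gene's spread from the same fit of 12 arrays. Their differences therefore come from separate arrays, but their calls are not independent, and genes of low spread are favoured in both. With the inhibitor 1656 genes were called (9.1%), 542 raised (2.98%) and 1114 lowered (6.12%), and median centring gave 1185 raised and 636 lowered. Both treatments called 1064 genes, which is 63.0% of the activin calls and 64.3% of the SB431542 calls. Of these, 375 were raised in both, 682 lowered in both and 7 opposite. Eomes differed by -3.66 under activin and -3.65 with SB431542, Wnt8a by -3.47 and -3.48, Nr0b1 by 1.74 and 1.67, Mest by 2.79 and 2.76, and Hprt by 6.58 and 6.55. A gene called under activin alone is not thereby shown to differ: of 626 such genes, 192 had an unadjusted p under 0.05 for the difference between treatments.

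The test of that difference itself (the activin difference minus the SB431542 difference) passed for 0 genes (0.0%) in limma, and 1317 genes (7.24%) had an unadjusted p under 0.05. Quantile normalization gave 3 calls, the upper 50% of genes 4 and the trended and robust prior 2, all lowered, and values floored at log2 6 gave 11, all raised. On simulated data, 16.4% of true changes of log2 size 1 and 82.1% of size 2 were recovered in this test. The changes were set among genes of mean 8 or more, so dimmer genes were not covered. The simulated noise had no difference in spread between arrays. Over all genes the median of the activin minus SB431542 value was 0.11. It was 0.03 over the upper 50% of genes and 0.03 without both arrays of narrow spread. Of all genes with an unadjusted limma p under 0.05, 1042 were positive and 275 negative. Over the upper 50% such a p was found for 479 of 9097 genes. Bright genes numbered 8648 by the activin groups alone. Here a gene also counted as bright where an SB431542 group mean of the 2 lines reached 8. By that rule 5 genes had an unadjusted limma p under 0.001, all with a negative value. Among so many genes, a threshold of 0.001 would pass about as many or more without any true difference.

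Smad7 had the largest of these values, -2.88 (SE 0.39, adjusted p = 0.237). Its line difference was -2.49 under activin and 0.38 with SB431542, where the arrays read 8.57 and 8.03 in WT and 8.52 and 8.85 in Smad4-null and so overlapped. For Pmepa1 the values were -1.89 and -0.33. Epha2, an ephrin receptor gene, was 11.01 and 10.88 in WT and 9.79 and 9.90 in Smad4-null under activin (-1.10), against 0.16 with SB431542. For Msx1 the difference was lowered under both treatments, by 2.49 and 1.33. Fgf15 turned direction: it was 10.14 and 10.11 against 9.50 and 9.54 under activin, and 7.85 and 7.91 against 8.84 and 8.93 with SB431542 (1.01, adjusted p = 0.00696). None of the 5 passed after adjustment, with adjusted p from 0.226 to 0.28.

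For further members the test of the difference had an unadjusted p under 0.05 and no adjusted p under it. Over all genes 7.24% had such an unadjusted p. The members given here all had negative values, but positive ones were found too. The nascent mesoderm, the cadherin and EMT, and the visceral and parietal endoderm lists had 2 positive members each, against 2, 1 and 0 negative. Lefty1 differed by 0.54 under activin and by 2.10 with SB431542 (adjusted p = 0.00401), where WT read 10.62 and 10.05 and Smad4-null 12.40 and 12.46; the interaction was -1.55 (unadjusted p = 0.00238). Mixl1 had -5.38 and -3.14, Pcdh8 -4.18 and -2.18, and Myc -1.29 and -0.31. For Nanog the values were -0.72 and -0.03. As a list, mesendoderm factors had a median of -2.59 under activin and -1.77 with SB431542, where 6 of 11 were lowered. The median of the members' own differences between treatments was smaller, -0.15, and 1 of 11 had an unadjusted limma p under 0.05 for it. Naive pluripotency genes had medians of 1.20 and 1.11, and 8 of 14 were raised with SB431542 too.

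**Figure D5:**
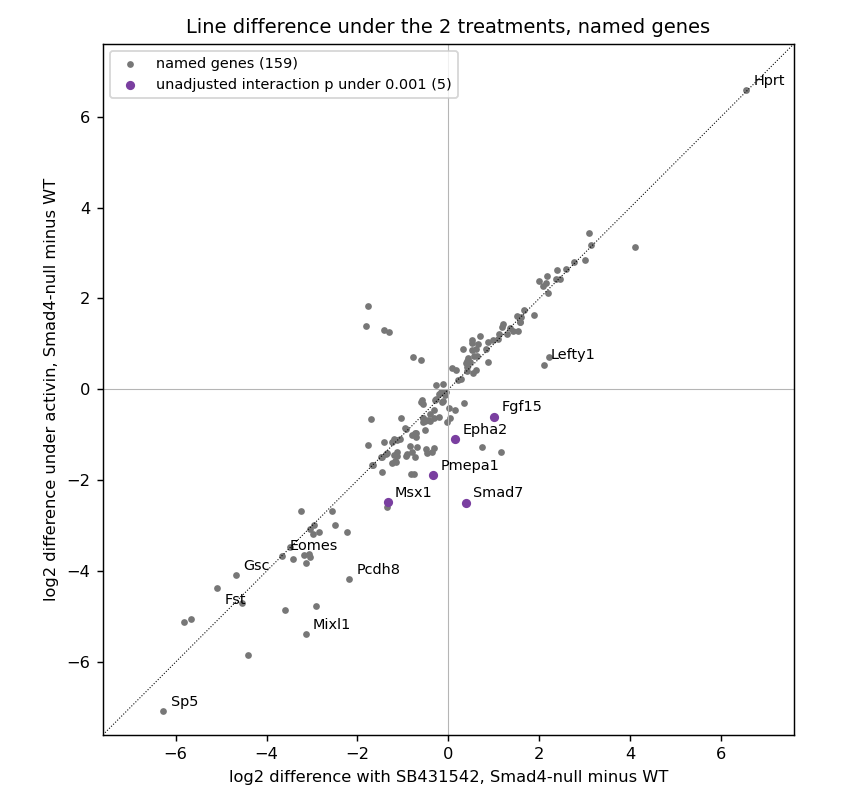
Line difference under activin (vertical) against the line difference with SB431542 (horizontal), both in log2, for the named genes. Points on the dotted diagonal differ equally under both; Smad7, Pmepa1, Epha2, Msx1 and Fgf15 (purple) lie below it, with an unadjusted interaction p under 0.001 and no adjusted p under 0.05.

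The Smad4-null arrays were also set against the other modified line under activin. Against Trim33-KD-ac, 1716 genes were called (9.43%), 733 raised (4.03%) and 983 lowered (5.4%). Trim33 itself averaged 10.27 in that line and was 1.54 higher in Smad4-null-ac (adjusted p = 0.00431). That contrast shares the Smad4-null-ac arrays with the comparison to WT, so values are given side by side and no overlap is drawn. Hprt was 7.0 higher, Gprc5a 3.15, Gfra1 3.03, Ryr3 2.89 and Gprc5b 2.84; against WT they were 6.58, 3.45, 3.18, 2.64 and 2.34 higher. On the lowered side Sp5 was -6.42, Nefl -4.26, Mid1 -4.24, Id1 -4.13 and Nefm -4.03. Of the mesendoderm factors 5 of 11 were lowered against Trim33-KD (median -1.38), and the Trim33-KD-ac means were 11.14 for Eomes and 9.76 for Mixl1, between the WT and Smad4-null levels. Foxa2 (-1.38, adjusted p = 0.143) and Gata6 (-0.20, adjusted p = 0.663) did not pass. Smad7 (-2.62) and Pmepa1 (-1.84) were lowered against Trim33-KD, whose means of 11.53 and 9.85 were near those of WT. Naive pluripotency genes were raised in 8 of 14 members there as well, with a median of 1.02. Some genes called against WT were not called against Trim33-KD: Fgf5 (-0.65, adjusted p = 0.119), Ccnd2, a D-type cyclin (-0.40, adjusted p = 0.146), and Dnmt3l, a cofactor of DNA methyltransferases (0.26, adjusted p = 0.487).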

How the data were processed

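Total RNA was hybridized to Affymetrix arrays, 1 per sample. The authors deposited log2 signals, a scale read from the values, which on the linear scale average 500 per array once 2% is trimmed from each end. How probes were summarized is not stated in the labels. The submitters' processing notes name limma without a version. Of 45101 probe sets, 64 were controls, 34945 had exactly 1 symbol, 932 several and 9160 none; the brightest stood for each of 18193 genes (9010 had more than 1), and 18031 gene IDs were found in RefSeq.

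A means model of 6 groups over 12 arrays (6 residual degrees of freedom) was fitted in R 4.3.3 with limma 3.58.1, with Benjamini-Hochberg adjustment. On simulated data 65.7% of log2 changes of 1 and 98.5% of 2, set among genes of mean 8 or more, were recovered in the line difference under activin, with 10 unchanged genes called. Figures used Python 3.11.15 and matplotlib 3.10.9. Motifs were searched in RefSeq promoters of GRCm38.p6.

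The members and the 34 lists were chosen with earlier results of these data known. The rule for naming took Smad4, Trim33 and Hprt; 15 raised and 15 lowered called genes by floored difference, with arrays apart and higher mean at least 8; every member of the nodal, receptor, antagonist, feedback and mesendoderm lists; up to 8 called bright members of each other list; bright genes with an interaction p under 0.001; and 5 per direction against Trim33-KD. It named 158 genes. Arrays were not paired by replicate number. Alternatives were 2 normalizations, the upper 50% of genes, a floor, the mean of probe sets, a replicate block, a 1.5-fold minimum, another prior, fits of the compared groups alone, array weights, and leaving out chromosomes 8 and 14, the narrow arrays or each array.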

Additional observations from a re-analysis of the deposited data

How the results depend on the processing

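The number of calls under activin, 1690, was 1045 with probe sets averaged per gene, 217 for a change of at least 1.5-fold, 434 without both arrays of narrow spread and 499 to 861 without 1 array. With only the groups compared in the fit (2 residual degrees of freedom) 0 passed, and 3864 had an unadjusted p under 0.05. Against Trim33-KD (1716) the counts were 1036, 235, 432, 537 to 946, and 0 with only the groups compared (3948 unadjusted). The lowest came without Smad4-null-ac replicate 1 (537), then Trim33-KD-ac replicate 2 (642), Trim33-KD-ac replicate 1 (904) and Smad4-null-ac replicate 2 (946). With SB431542 (1656) the counts were 166 for at least 1.5-fold, 338 without the narrow arrays, 0 with only the groups compared (3494 unadjusted) and 411 to 1160 without 1 array. The lowest were 411 without Smad4-null-SB replicate 2, 463 without Smad4-null-SB replicate 1 and 648 without WT-SB replicate 2. Quantile normalization gave 739 raised and 739 lowered there, and median centring moved the median of all genes from -0.12 to 0.08. The test between treatments gave 0 calls, against 3 with quantile normalization, 4 over the upper 50% of genes, 11 with values floored and 2 with the trended and robust prior. Counts with array weights and without chromosomes 8 and 14 were within 1.5 times of these.

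Correlations of same-numbered arrays' deviations ran from -0.30 to 0.39, so the replicate block was read only as a check: it gave 1444 calls under activin, 1387 with SB431542, 1399 against Trim33-KD and 0 between treatments. With crossed numbers, chosen after seeing the data, 1596 were called against Trim33-KD.

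Of 134 called named genes, 126 kept the call with quantile normalization, 101 with the mean of probe sets and 65 to 90 without 1 array. The sign turned for 2 called genes, with the mean of probe sets: Tgfbr2 (0.19) and Cdk5r1 (-0.002). It also turned for uncalled genes: in that setting Acvr1b (0.15), Acvr2a (-0.073) and Ldlrad4 (-0.41); with median centring Acvr2b (0.003), Smad3 (0.037) and Tgif1 (0.032); with quantile normalization Smad3 (0.033); and without the narrow arrays Acvr2a (-0.010) and Tgif1 (0.023). Without 1 array, ranges crossed 0 for Acvr1c (-0.081 to 0.93), Acvr2a (-0.010 to 0.20), Acvr2b (-0.20 to 0.012), Smad3 (-0.14 to 0.018), Fstl3 (-1.20 to 0.39), Tgif1 (-0.15 to 0.023) and Gata4 (-0.52 to 0.056). Except where fewer arrays or a stricter limit enter, the cause was not tested. Dim probe sets limit the low genes: 6268 genes had both means under log2 6.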

Other observations

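Lists outside the nodal, Wnt and pluripotency genes are given by their counts, to be read against the 9.29% of all genes called under activin; no list was tested against the rest. Of 6 DNA methylation genes 2 were raised. Dnmt3l, the cofactor of the de novo methyltransferases, was 10.80 and 10.55 in WT and 12.27 and 12.35 in Smad4-null (1.64, limma adjusted p = 0.00613), and the Trim33-KD-ac mean was 12.05. Tet1, which oxidises methylcytosine, rose by 0.43 and lost its call without any single array. Imprinted genes had 4 of 21 raised and none lowered: Plagl1 (2.86), Mest (2.79), Nnat (1.08) and Sgce (0.87). Nnat held only without WT-ac replicate 1, and the other 3 without any single array. Of 12 germ cell genes Dazl, an RNA-binding factor, was raised (7.89 and 7.88 in WT, 9.55 and 9.19 in Smad4-null) and Sycp3, of the synaptonemal complex, was lowered (-1.57, lost without any single array). The X-inactivation RNA Xist, 1 of 8 sex chromosome genes called, rose by 1.02 and held only without WT-ac replicate 2.

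Of 16 p53 target genes 6 were lowered and none raised, with a median of -0.54. Cdkn1a, the cyclin-dependent kinase inhibitor p21, was 11.62 and 11.51 in WT and 10.34 and 10.27 in Smad4-null (-1.26, adjusted p = 0.0184), and was called in no fit without an array. Sesn2 (-1.31) held in all 4. Btg2 (-1.24), Bbc3 (-0.63), Trp53inp1 (-0.62) and Tnfrsf10b (-1.23, floored -0.75) were the rest. The list count was 2 without either WT-ac array, 3 without Smad4-null-ac replicate 1 and 5 without Smad4-null-ac replicate 2. Of 14 G1 cell cycle genes, Ccnd2, a D-type cyclin, was lowered (10.49 and 10.48 against 9.06 and 8.96) and Cdkn2a raised (1.60, floored 0.86). Amino acid transporter genes made up the raised members among 20 ATF4 and stress genes: Slc7a5 (0.74), Slc3a2 (0.62) and Slc7a3 (0.60), with Sesn2 lowered. Slc7a5 lost its call without WT-ac replicate 1 or Smad4-null-ac replicate 1, and Slc3a2 and Slc7a3 without any single array.

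Matrix genes moved both ways, 4 of 32 each. Fn1 (0.89), Nid1 (1.08), Nid2 (0.73) and Itga6 (0.59) were raised, and Tagln (-1.44), Col4a1 (-0.70), Itgb5 (-0.63) and Ccn1 (-0.62) lowered. None of these 8 held in every fit without an array: 2 raised and 3 lowered were left without Smad4-null-ac replicate 2, 1 raised without WT-ac replicate 2 and none without the other 2 arrays. Of 16 cadherin and EMT genes Cldn7 (-1.12), Vim (-1.01) and Ocln (-0.63) were lowered and Zeb1 raised (1.24, floored 0.32). Flt1 was lowered (-1.67) and Tek raised (1.26) among 12 blood and endothelial genes. H2-K1 (-1.15) and Irf9 (-1.0) were lowered and Ifitm1 raised (0.88) among 12 interferon genes. Foxq1 (-1.09) was the single call among 15 visceral and parietal endoderm genes, Pfkp (0.89) among 21 hypoxia and glycolysis genes, Hprt among 12 purine genes and Gusb (-0.53) among 8 reference genes. In limma 0 of 10 trophectoderm genes and 0 of 9 fibroblast genes were called, with an unadjusted p under 0.05 for 1 and 3 of them.

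Of the 7 genes called in opposite directions under the treatments, chosen after their values were seen, Fgf15 was the only bright one. The other 6 were Oxtr (1.85 under activin, -1.77 with SB431542), Cd52 (1.30 and -1.41), 4933438B17Rik (1.26 and -1.30), Srpx2 (0.71 and -0.77), Cdk5r1 (0.66 and -0.60) and E330021D16Rik (-1.38 and 1.17). With values floored at log2 6, all of these but Cdk5r1 came to 0.00 under activin.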
